A study of Mus musculus with 40 samples.

Results

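Among 40 mouse RNA-seq libraries of lung organoids and embryonic lung tips, 2 form the comparison described here: a library labelled 2C+F10 and a library labelled 2C, both from lung organoids, with 1 library per condition. The only difference the labels give between them is F10, read here as fibroblast growth factor 10 (FGF10) added to the medium. That reading is an assumption, since the labels spell out FGF10 only for another group and define neither 2C nor the plus sign. Of 55260 genes listed, 10896 reached 5 TPM (a length-corrected share of all transcripts) in the higher of the 2 libraries and were compared by their difference in log2(TPM + 1), 2C+F10 minus 2C. The same table holds 2C+MTG, 2C+VC and an ALL library without a replicate number, which serve to place each value. A second table holds ALL-FGF10, ALL-MTG, ALL-VC and ALL, with 2 numbered replicates each. ALL-FGF10 is read as the full set of factors without FGF10, so it tests the removal of the factor that 2C+F10 adds. The labels give no strain, start stage, culture day, dose or contents of the media for these libraries, and MTG and VC are used as names only.

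FGF10 is a ligand that lung mesenchyme secretes toward the tips of the epithelial tree. It binds the epithelial splice form of the receptor FGFR2, which signals through the adaptor FRS2 and the RAS and ERK cascade to the ETS factors ETV4 and ETV5 and to feedback inhibitors of the Sprouty, SPRED and dual-specificity phosphatase families. In the embryonic lung it is needed for budding, and in distal tips it is known to maintain SOX9-positive progenitors and to restrain airway fate.

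Promoters of 3 of the epithelial genes that were higher in 2C+F10 show the kind of sequence that lies ahead of these genes. They are the 250 bases before the start site in RefSeq on GRCm38.p6, read in the direction of the gene, for Cyp2f2 (chr7:27119705-27119954, plus strand), Cbr2 (chr11:120732022-120732271, minus strand) and Sftpa1 (chr14:41131538-41131787, plus strand). Capitals mark matches to CAAGTG, a core of sites for the lung epithelial factor NKX2-1, or to TGTTTNC, a core of forkhead (FOX) sites, on either strand, so that CACTTG and GAAAACA are minus-strand matches.
Cyp2f2: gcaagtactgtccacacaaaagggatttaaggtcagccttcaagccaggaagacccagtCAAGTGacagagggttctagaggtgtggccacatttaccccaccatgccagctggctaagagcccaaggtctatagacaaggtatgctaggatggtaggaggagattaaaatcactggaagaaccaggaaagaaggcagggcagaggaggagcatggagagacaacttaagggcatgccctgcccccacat
Cbr2: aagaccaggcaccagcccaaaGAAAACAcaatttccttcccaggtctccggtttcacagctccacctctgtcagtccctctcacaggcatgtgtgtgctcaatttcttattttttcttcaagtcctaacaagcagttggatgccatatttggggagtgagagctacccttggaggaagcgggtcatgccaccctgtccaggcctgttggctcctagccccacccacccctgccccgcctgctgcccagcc
Sftpa1: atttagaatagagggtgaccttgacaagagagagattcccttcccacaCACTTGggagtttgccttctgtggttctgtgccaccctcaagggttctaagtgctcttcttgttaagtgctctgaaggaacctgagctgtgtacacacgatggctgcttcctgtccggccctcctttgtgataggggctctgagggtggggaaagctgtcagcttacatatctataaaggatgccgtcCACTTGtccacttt
Cyp2f2 had 1 NKX2-1 core, Sftpa1 had 2 on the minus strand, and Cbr2 had 1 FOX core on the minus strand. Of 32851 mouse promoters of this length, 11.6% held the NKX2-1 core and 17.8% the FOX core, so a match is a description of the sequence and no sign of a site in use. Neither motif contains the other. No match to CCGGAAG, an ETS core held by 6.91% of promoters, was found in these 3 windows. RefSeq promoters were at hand for 76 of the 149 genes named by rule.

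With FGF10 in the 2C medium, genes of airway secretory cells, of surfactant and of fibroblast matrix stood higher and genes of the cell cycle stood lower. No listed transcriptional target of FGF signalling was called. With 13 of 20 at 5 TPM or more and 5.91% of all genes called, this absence is near the overall share. A gene was called at a log2 difference of at least 1. By this rule 644 genes were called, 5.91% of those compared, with 336 higher in 2C+F10 (3.08%) and 308 lower (2.83%). The median difference over all 10896 genes was 0.02. The share of all genes with a positive difference was not counted, so counts of list members with the same sign have only this median beside them. Among 9944 protein-coding genes, 228 were higher (2.29%) and 85 lower (0.855%). Genes whose longest transcript is under 300 nt made up 65 of the higher and 153 of the lower calls, and such genes had a value above 0 in 201 cases in 2C+F10 and in 306 cases in 2C. Just inside the threshold lay Acy3 with 7.44 TPM in 2C+F10 and 3.22 TPM in 2C, and Gjc1 with 9.43 TPM in 2C+F10 and 19.9 TPM in 2C. Just outside it lay Gemin4 with 20.8 TPM in 2C+F10 and 9.89 TPM in 2C, and Pcsk6 with 7.42 TPM in 2C+F10 and 15.8 TPM in 2C. At the floor of 5 TPM, Flywch2 was kept with 0.39 TPM in 2C+F10 and 5.01 TPM in 2C, and Tmem119 was left out with 4.94 TPM in 2C+F10 and 0.16 TPM in 2C.

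With 1 library in each condition there is no replicate check of any difference between 2C+F10 and 2C, and none is given a p-value. As a yardstick, the same rule was applied to replicate 1 against replicate 2 of each numbered group. It called 2.56% of genes between the ALL-FGF10 replicates, 4.09% between those of ALL-VC, 8.23% between those of ALL-MTG and 11.8% between those of ALL. The 5.91% called between 2C+F10 and 2C lay inside that range. For protein-coding genes the 3.15% called between 2C+F10 and 2C also lay inside the range of the pairs, which was 0.453% for ALL-FGF10, 2.49% for ALL-VC, 6.01% for ALL-MTG and 9.71% for ALL. Against 2C, the rule called 7.52% of genes for 2C+MTG, 9.61% for 2C+VC and 12.3% for the unnumbered ALL library. Of the 644 genes, 423 differed by more than in every one of the 4 replicate pairs, 200 of them higher in 2C+F10 and 223 lower. For genes near 0 in the numbered libraries this excess is built in: 90 of the 644 were under 1 TPM in all 8, and all 90 are among the 423. Of the 454 called genes at 5 TPM or more in a numbered library, 254 differed by more than in every pair. The largest replicate difference is given below for single genes, and it comes from a table that was scaled separately.

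**Figure D1:**
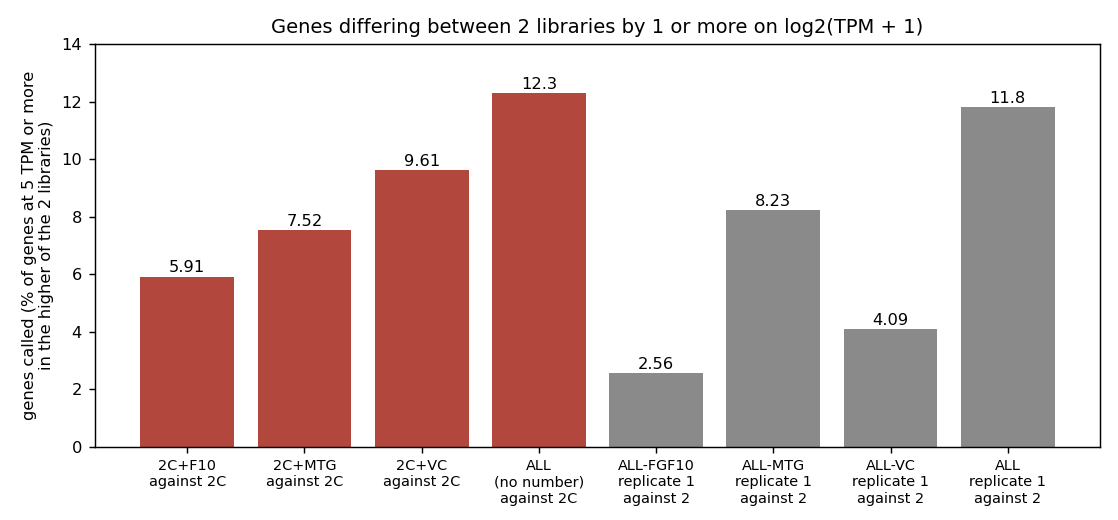
Bars give the percent of genes at 5 TPM or more that differed by at least 1 on log2(TPM + 1) between 2 libraries: each library of the 2C table against 2C in red, and replicate 1 against replicate 2 of the 4 numbered groups in grey. The bar of 2C+F10 stands at 5.91%, lower than the other 3 red bars and between the grey bars of 2.56% and 11.8%.

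Both libraries had the markers of lung epithelium. Nkx2-1 had 329 TPM in 2C+F10 and 293 TPM in 2C, and the epithelial adhesion gene Epcam had 287 TPM in 2C+F10 and 290 TPM in 2C. Genes at 1 TPM or more numbered 13983 in 2C+F10 and 13977 in 2C, and mitochondrial genes took 8.70% of TPM in 2C+F10 and 10.4% in 2C. Xist was listed at 277 TPM in 2C+F10 and 446 TPM in 2C with the Y-linked gene Eif2s3y at 0 in both, whereas Eif2s3y had 83.3 TPM in 2C+MTG and 85.1 TPM in 2C+VC. The zinc finger genes Zfp979 and Zfp984, members of a cluster of near-identical copies, were at 0.25 and 0.29 TPM in 2C+F10 and at 13.2 and 10.2 TPM in 2C. Whether the cells of the 2C+F10 and 2C libraries came from the same animals is not stated. In libraries of whole organoids, a change in the number of cells of a type and a change in RNA per cell cannot be told apart.

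No ligand or receptor gene was called. The Fgf10 gene itself was listed at 0 in all 5 libraries of the table, and since an added protein is not seen in RNA, this gene does not check the label. Of 8 ligand genes only Fgf1 and Fgf18 reached 5 TPM. Fgf1, a ligand that can bind all FGF receptors, had 86.9 TPM in 2C+F10 and 122 TPM in 2C, a log2 difference of -0.49 against a largest replicate difference of 0.20. Fgf18 had 6.33 TPM in 2C+F10 and 7.36 TPM in 2C. Fgf9, a ligand of lung epithelium and mesothelium, stayed under the floor with 1.03 TPM in 2C+F10 and 3.14 TPM in 2C, a difference of -1.03 against 1.06 between replicates. Fgfr2, the receptor that binds FGF10, had 239 TPM in 2C+F10, 245 TPM in 2C+MTG, 334 TPM in 2C+VC, 308 TPM in the unnumbered ALL library and 240 TPM in 2C. Fgfr3 had 89.6 TPM in 2C+F10 and 93.0 TPM in 2C, and the adaptor gene Frs2 had 21.3 TPM in 2C+F10 and 26.1 TPM in 2C. No gene of the 11 receptors and adaptors was called, with 8 at the floor, and their differences ran from -0.35 to 0.43. For lists this short, no call is near the 5.91% called over all genes.

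None of the 20 listed FGF and ERK response genes was called in either direction, with 13 of them at the floor and a median difference of -0.11. Over all genes compared 5.91% were called, so no call among 13 genes is near that share. Etv5, an ETS factor that FGF10 induces in lung tips, had 99.8 TPM in 2C+F10, 181 TPM in 2C+MTG, 169 TPM in 2C+VC, 223 TPM in the unnumbered ALL library and 158 TPM in 2C. It was lowest in 2C+F10, by -0.66 against 2C, where the largest replicate difference was 0.47. Etv4, its partner, had 2.14 TPM in 2C+F10, 15.2 TPM in 2C+MTG, 10.6 TPM in 2C+VC, 25.5 TPM in the unnumbered ALL library and 2.69 TPM in 2C. 2C+F10 and 2C were thus both low for Etv4. Of the feedback inhibitors, Spry2 had 34.4 TPM in 2C+F10 and 36.8 TPM in 2C, the ERK phosphatase Dusp6 had 10.7 TPM in 2C+F10 and 11.6 TPM in 2C, and Spred1 had 27.8 TPM in 2C+F10 and 30.1 TPM in 2C. These 3 genes were also higher in 2C+VC, at 64.0, 31.1 and 44.4 TPM, than in either library. Spry1 and Spred2 went the other way, with 33.7 and 7.91 TPM in 2C+F10 and 27.7 and 7.5 TPM in 2C. Of the 13 response genes at the floor, 5 had positive and 8 negative differences. The immediate early genes Egr1 and Fos had 118 and 46.8 TPM in 2C+F10 and 175 and 64.7 TPM in 2C, differences of -0.56 and -0.46 that lay well inside their largest replicate differences of 2.69 and 3.53.

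**Figure D2:**
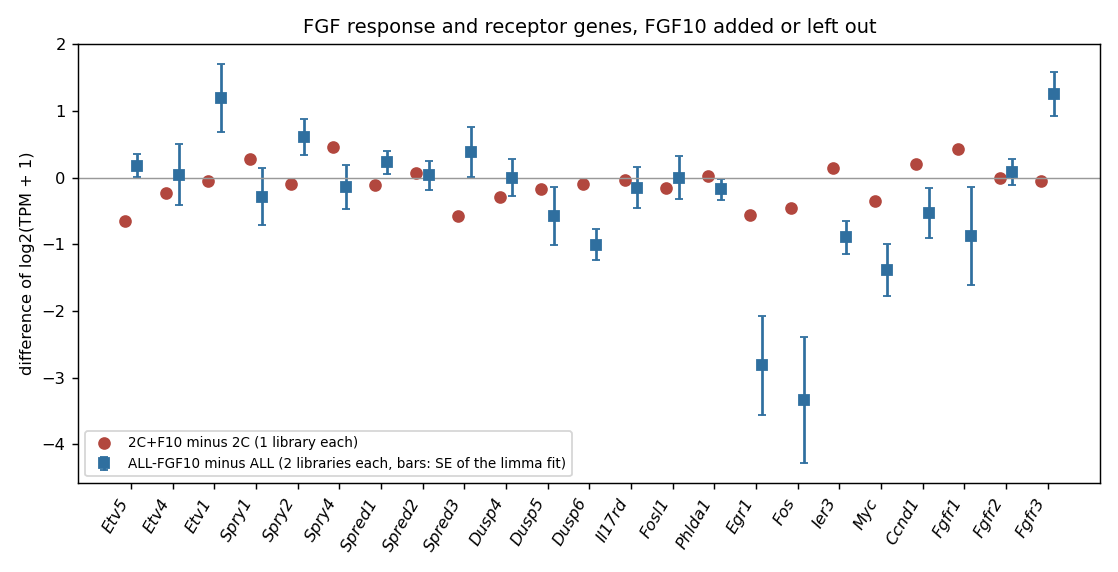
Points give the difference in log2(TPM + 1) of the 20 FGF and ERK response genes and 3 receptor genes, red circles for 2C+F10 minus 2C (1 library each) and blue squares for ALL-FGF10 minus ALL (2 libraries each, bars for the standard error of the limma fit). The red points lie between -0.66 for Etv5 and 0.45 for Spry4, a gene under 1 TPM in both libraries, and the lowest blue points are Fos at -3.34 and Egr1 at -2.81, neither past the test's threshold.

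Airway secretory genes held the largest single difference of the listed epithelial genes. Of 13 listed genes, 6 reached the floor and 5 were called, all higher in 2C+F10, and the median over the 13 was 0.79. Over all genes compared, 3.08% were called higher. Over the 4 replicate pairs the median of the list moved by at most 0.09, but in those libraries most of its members were near 0. Scgb1a1 (chr19:9083636-9087958), which encodes the secretoglobin of club cells, had 371 TPM in 2C+F10, 0.53 TPM in 2C+MTG, 4156 TPM in 2C+VC, 7.62 TPM in the unnumbered ALL library and 19.0 TPM in 2C. The difference was 4.22 and the largest replicate difference 3.95. The gene was thus high in 2C+F10 and higher still in 2C+VC, and its replicates differed nearly as much as the 2 media. Cbr2, a carbonyl reductase of club cells, had 383 TPM in 2C+F10, 12.3 TPM in 2C+MTG, 782 TPM in 2C+VC, 100.2 TPM in the unnumbered ALL library and 74.6 TPM in 2C. Scgb3a2, a second airway secretoglobin, had 49.0 TPM in 2C+F10, 292 TPM in 2C+VC and 10.4 TPM in 2C and was at 0 in the other 2. Both differences, 2.34 for Cbr2 and 2.13 for Scgb3a2, were smaller than the largest replicate differences of 3.13 and 2.32.

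Cyp2f2, a cytochrome P450 of club cells whose promoter is printed above, was highest in 2C+F10 of the 5 libraries. It had 326 TPM in 2C+F10, 3.24 TPM in 2C+MTG, 179 TPM in 2C+VC, 0.98 TPM in the unnumbered ALL library and 115 TPM in 2C, a difference of 1.50 against a largest replicate difference of 1.24. Hp, the haptoglobin gene, had 184 TPM in 2C+F10 and 79.7 TPM in 2C. The airway transcription factor gene Sox2 had 4.70 TPM in 2C+F10 and 3.53 TPM in 2C, under the floor, and was at 0 in 2C+MTG and the unnumbered ALL library. Other secretory genes, Scgb3a1 and Reg3g, were listed at 0 in both 2C+F10 and 2C.

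**Figure D3:**
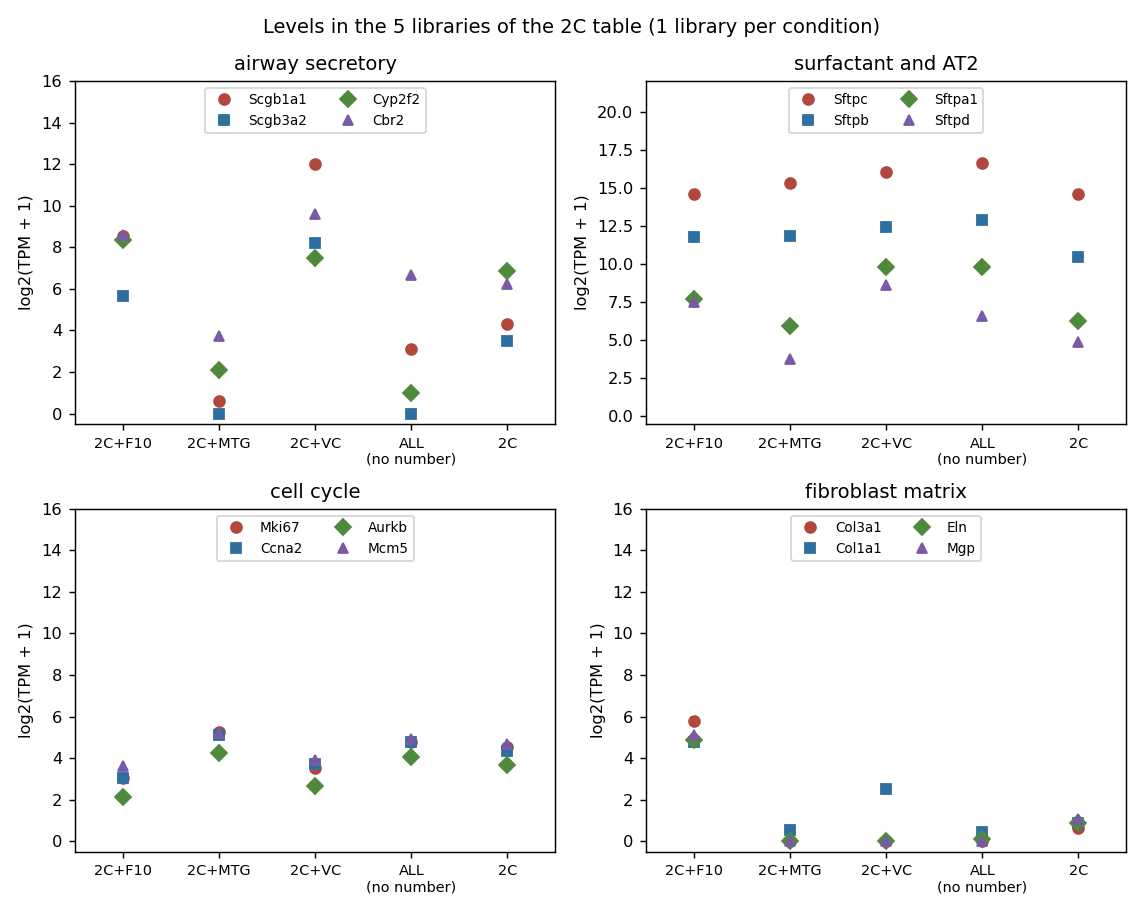
Each panel plots log2(TPM + 1) of 4 genes in the 5 libraries of the 2C table, 1 library per condition, for airway secretory, surfactant, cell cycle and fibroblast matrix genes. 2C+F10 stands above 2C for the airway genes, for Sftpb, Sftpa1 and Sftpd and for the matrix genes, and below 2C for the cell cycle genes, whereas Sftpc is level at 24321 TPM in 2C+F10 and 24913 TPM in 2C.

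The other airway classes were partly or hardly present. All 11 ciliated cell genes had a positive difference, with a median of 0.66 and 2 called, where 3.08% of all genes were called higher. Dynlrb2, a dynein light chain, had 52.2 TPM in 2C+F10, 47.8 TPM in 2C+VC, 2.10 TPM in the unnumbered ALL library and 15.6 TPM in 2C and was at 0 in 2C+MTG. Its difference of 1.68 lay inside the 2.28 seen between replicates. Mlf1, the other gene called, had 17.2 TPM in 2C+F10 and 7.60 TPM in 2C. Foxj1, the master factor of motile cilia, had 19.6 TPM in 2C+F10 and 10.1 TPM in 2C and was not called. The defining basal cell genes Krt5 and Krt14 were at 0 in both libraries, and none of 8 neuroendocrine genes reached the floor. Of 9 basal genes, 5 had positive differences and none a negative one, with a median of 0.06 and 1 at the floor. Of 9 goblet and mucous genes, 4 had positive and 3 negative differences, with 1 at the floor.

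Genes of alveolar type 2 (AT2) cells, which make surfactant, stood higher in 2C+F10, with Sftpc, Etv5 and Il33 as exceptions. Of 20 genes, all at the floor, 17 had a positive difference and 10 were called, all higher. The share called higher over all genes compared was 3.08%. The median was 0.87, against at most 0.49 between replicates, and the same list had a median of 1.72 for 2C+VC against 2C, a comparison that shares the 2C library. Sftpd, the surfactant collectin D, had 182 TPM in 2C+F10, 12.9 TPM in 2C+MTG, 386 TPM in 2C+VC, 97.3 TPM in the unnumbered ALL library and 28.5 TPM in 2C. Its difference of 2.64 exceeded the largest replicate difference of 1.48. Sftpb, the surfactant protein needed for lamellar bodies, had 3422 TPM in 2C+F10, 3618 TPM in 2C+MTG, 5512 TPM in 2C+VC, 7701 TPM in the unnumbered ALL library and 1430 TPM in 2C. Here 2C was the low library and 2C+F10 was level with 2C+MTG. Sftpa1, the collectin A, had 208 TPM in 2C+F10, 59.6 TPM in 2C+MTG, 902 TPM in 2C+VC, 886 TPM in the unnumbered ALL library and 74.0 TPM in 2C, a difference of 1.48 against 1.37 between replicates.

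The aspartic protease gene Napsa, which processes surfactant proteins, had 108 TPM in 2C+F10 and 31.6 TPM in 2C, a difference of 1.74 against 0.92 between replicates. Lyz2 and Lyz1, lysozyme genes, had 86.6 and 151 TPM in 2C+F10 and 15.1 and 54.3 TPM in 2C. They are near-identical copies, so the split of reads between them is uncertain. Sftpc, the marker of AT2 cells and distal tips that took the largest share of transcripts of the surfactant genes, made up 2.44% of TPM in 2C+F10, 4.03% in 2C+MTG, 6.69% in 2C+VC, 10.2% in the unnumbered ALL library and 2.50% in 2C. Etv5, also a member of this list, was lower in 2C+F10 as given above. Abca3 and Lamp3, genes of lamellar bodies, had 173 and 265 TPM in 2C+F10 and 123 and 204 TPM in 2C and were not called.

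Genes of alveolar type 1 (AT1) cells, the flat cells of gas exchange, were also higher, by less. All 20 had a positive difference, 18 reached the floor and 6 were called higher, beside 3.08% of all genes compared. Their median of 0.57 was about the size of the largest median between replicates, 0.56. For 2C+VC against 2C, which shares the 2C library, the median of this list was 1.10. Rtkn2, a gene typical of AT1 cells, had 80.9 TPM in 2C+F10, 11.3 TPM in 2C+MTG, 113 TPM in 2C+VC, 60.8 TPM in the unnumbered ALL library and 24.0 TPM in 2C. Its difference of 1.71 exceeded the 1.32 between replicates. Aqp5, a water channel, had 28.6 TPM in 2C+F10 and 13.6 TPM in 2C, and Cldn18, a tight junction gene, had 471 TPM in 2C+F10 and 229 TPM in 2C. The AT1 genes Ager and Hopx had 1218 and 280 TPM in 2C+F10 and 735 and 176 TPM in 2C and were not called, and Pdpn was near 1 TPM, with 1.08 TPM in 2C+F10 and 0.79 TPM in 2C.

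The 12 genes of transitional epithelium, a state between AT2 and AT1 cells that is marked by Krt8, also all had positive differences, with a median of 0.51 against at most 0.61 between replicates. The 2 called were the stress gene Nupr1, with 271 TPM in 2C+F10 and 125 TPM in 2C, and the chaperone Clu, with 456 TPM in 2C+F10 and 217 TPM in 2C. Krt8 itself had 655 TPM in 2C+F10 and 460 TPM in 2C. Over all genes compared, 3.08% were called higher. The median of this list for 2C+VC against 2C was 0.58. Clu is also listed with distal tip genes and was far higher in 2C+MTG, at 2908 TPM.

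**Figure D4:**
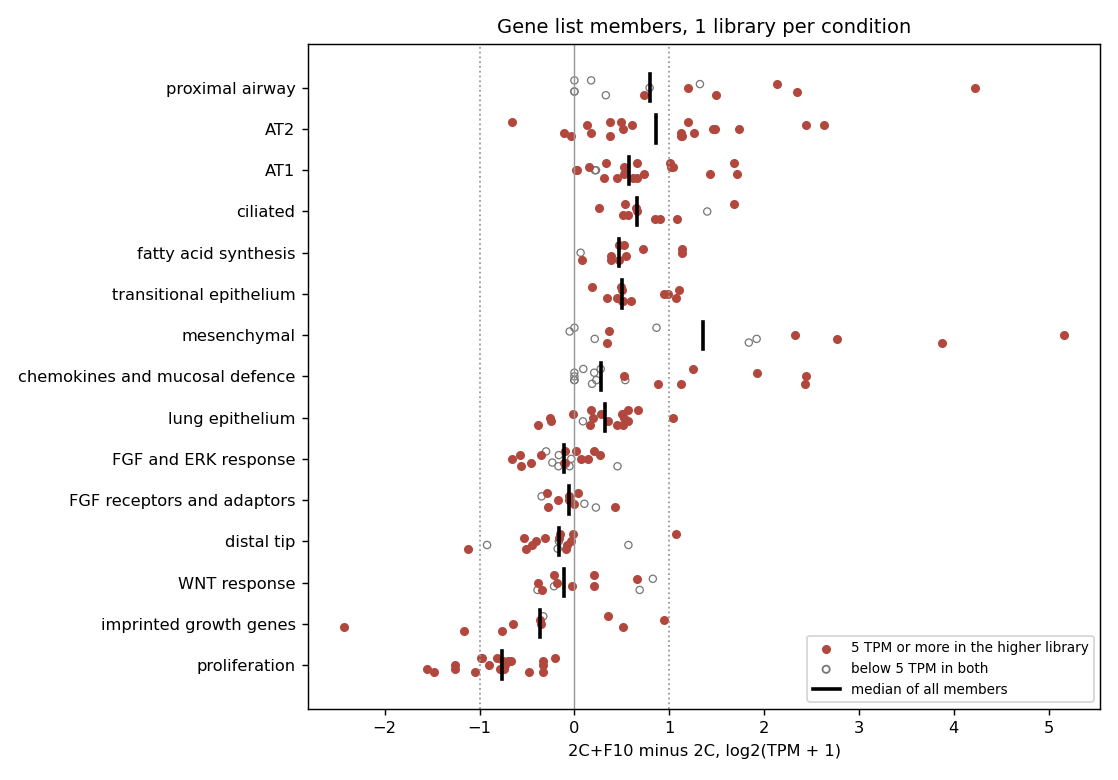
Each point is a gene of 15 lists, placed by its difference in log2(TPM + 1) between 2C+F10 and 2C, filled where the gene reached 5 TPM in the higher library and open where it did not, and the black ticks are medians over all members. Points of the AT1, ciliated, fatty acid and transitional lists lie on the positive side and all 20 points of the proliferation list on the negative side, while the FGF and ERK response list centres at -0.11.

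Lipid and defence lists gave 2 and 5 calls, all higher in 2C+F10, where 3.08% of all genes compared were called higher. All 11 genes of fatty acid synthesis had positive differences, with a median of 0.47 against at most 0.41 between replicates, and Fasn and Scd1 were the 2 called. Fasn, the fatty acid synthase, had 1034 TPM in 2C+F10, 426 TPM in 2C+MTG, 992 TPM in 2C+VC, 694 TPM in the unnumbered ALL library and 470 TPM in 2C, and its difference of 1.14 exceeded the 0.53 between replicates. Scd1, a desaturase, had 1917 TPM in 2C+F10 and 874 TPM in 2C, a difference of 1.13 within the 2.09 seen between replicates. The fatty acid list had a median of 0.68 for 2C+VC against 2C. Of 17 chemokine and mucosal defence genes, 7 reached the floor and 5 were called higher, while 4 were at 0 in both. The median over the 17 was 0.28, well inside the 1.50 by which it moved between replicates. For 2C+VC against 2C it was 1.89. Besides Lyz2, the genes called in 2C+F10 were Saa3, an acute phase protein, Lcn2, a siderophore-binding lipocalin, the complement gene C3 and the lung chemokine Cxcl15. Cxcl15 had 943 TPM in 2C+F10 and 432 TPM in 2C, a difference of 1.12 against 0.56 between replicates, and Lcn2 had 38.7 TPM in 2C+F10 and 9.41 TPM in 2C. The differences of Saa3 and C3, 2.43 and 1.25, lay inside their largest replicate differences of 3.59 and 1.86.

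Proliferation genes were lower in 2C+F10 without exception among the 20 listed. Of these 20, all at the floor, 5 were called lower and none higher, where 2.83% of all genes compared were called lower. The median was -0.77, and between replicates of a group the same list moved by up to 0.86, so a shift of this size also separated libraries with the same label. Mki67, the marker of cycling cells, had 7.20 TPM in 2C+F10, 37.5 TPM in 2C+MTG, 10.7 TPM in 2C+VC, 26.8 TPM in the unnumbered ALL library and 21.9 TPM in 2C. The difference of -1.48 was close to the largest replicate difference of 1.45. Aurkb, a mitotic kinase, had 3.39 TPM in 2C+F10 and 11.9 TPM in 2C, and Ccna2, the S and G2 phase cyclin, had 7.39 TPM in 2C+F10 and 19.1 TPM in 2C. Their differences of -1.56 and -1.26 exceeded their largest replicate differences of 0.79 and 0.55. Bub1, a spindle checkpoint kinase, and Mcm5, a subunit of the replicative helicase, were the other two called. 2C+F10 had the lowest value of the 5 libraries for Mki67, Aurkb, Ccna2, Bub1 and Mcm5, with 2C+VC next. These 5 were picked as lower in 2C+F10 than in 2C, which fixes part of that order. Over the 20 genes, 2C+VC against 2C had a median of -0.63, and summed TPM was 322 in 2C+F10 and 332 in 2C+VC.

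Of 17 distal tip genes, 15 had negative differences. Their median of -0.17 lay inside the 0.18 by which the list moved between replicates. Sox9, the factor that marks tip progenitors, was the only one called lower. It had 4.24 TPM in 2C+F10, 19.8 TPM in 2C+MTG, 11.9 TPM in 2C+VC, 25.2 TPM in the unnumbered ALL library and 10.4 TPM in 2C. 2C+F10 was thus the lowest of the 5 by more than 1 on the log2 scale, and the difference of -1.12 from 2C exceeded the largest replicate difference of 0.20. Clu was called higher, as given above. The others were not called, among them Hmga2, a chromatin protein under the floor with 1.44 TPM in 2C+F10 and 3.62 TPM in 2C, Id2 with 108 TPM in 2C+F10 and 147 TPM in 2C, Wnt7b with 14.7 TPM in 2C+F10 and 21.2 TPM in 2C, and Bmp4 with 39.9 TPM in 2C+F10 and 44.9 TPM in 2C. Col18a1, a basement membrane collagen from another list, was also lowest in 2C+F10. It had 27.2 TPM in 2C+F10, 265 TPM in 2C+MTG, 90.6 TPM in 2C+VC, 340 TPM in the unnumbered ALL library and 69.8 TPM in 2C. It was the only gene called of 15 basement membrane genes, of which 10 had positive differences, with a list median of 0.10.

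The imprinted neighbours H19 and Igf2, a growth-linked noncoding RNA and a fetal growth factor on chromosome 7, were both lower in 2C+F10. H19 (chr7:142575529-142578143) had 299.6 TPM in 2C+F10, 1248 TPM in 2C+MTG, 25.1 TPM in 2C+VC, 80.6 TPM in the unnumbered ALL library and 1616 TPM in 2C. Its difference was -2.43. H19 lay between 0.23 and 1.49 TPM in every numbered library, so the replicate pairs give no spread for it at the levels of 2C+F10 and 2C. Igf2 had 316 TPM in 2C+F10, 693 TPM in 2C+MTG, 44.0 TPM in 2C+VC, 66.1 TPM in the unnumbered ALL library and 709 TPM in 2C. Both genes had the same order over the 5 libraries, with 2C+F10 between 2C+MTG and the unnumbered ALL library. Of the other 8 imprinted genes none was called, and Meg3 was higher, with 175 TPM in 2C+F10 and 90.1 TPM in 2C.

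Among the 15 largest positive differences named by rule, most belonged to genes of fibroblasts and their matrix, which are not epithelial. Of 12 mesenchymal genes, 6 reached the floor and 4 were called higher, and the median was 1.35. Over all genes compared, 3.08% were called higher. The 4 called, Col1a1, Col1a2, Col3a1 and Acta2, were under 1 TPM in 2C and reached the floor only through 2C+F10. A gene under 1 TPM in 2C that reaches the floor this way is always called, so the count adds nothing to the levels. Col3a1, a fibrillar collagen, had 54.4 TPM in 2C+F10 and 0.54 TPM in 2C and was at 0 in the other 3 libraries. Col1a1 had 26.4 TPM in 2C+F10, 0.47 TPM in 2C+MTG, 4.78 TPM in 2C+VC, 0.37 TPM in the unnumbered ALL library and 0.87 TPM in 2C. Elastin (Eln) had 28.6 TPM and matrix Gla protein (Mgp) 33.6 TPM in 2C+F10, against 0.82 and 1.10 TPM in 2C. Bgn, Col6a1, Col6a2, Mfap4, Igfbp4, Sparcl1, Igf1 and Cdh11 were also among these, each at 9.75 TPM or more in 2C+F10 and under 1 TPM in 2C. 2C+F10 was the single library of its table with these genes at such levels.

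The same genes separated replicates in the other table. ALL replicate 1 had 45.2 TPM of Col3a1 and 76.4 TPM of Bgn, where ALL replicate 2 had 0.80 and 1.43 TPM, and the median of the mesenchymal list moved by 2.01 between replicates of 1 group. Summed over the 12 genes, the level was 137 TPM in 2C+F10, 17.7 TPM in 2C+MTG, 64.6 TPM in 2C+VC, 31.5 TPM in the unnumbered ALL library and 28.5 TPM in 2C. Among the numbered libraries this sum was highest in ALL-MTG replicate 1, at 291 TPM, with Col3a1 at 0 there, and was 133 TPM in ALL replicate 1. Tcf21, a defining factor of lung fibroblasts, was at 0 in 2C+F10, and Pdgfra had 4.01 TPM in 2C+F10 and 0.40 TPM in 2C. The part of these genes in the epithelial differences above was not tested. Of 5 mesothelial genes only Msln was called, with 58.1 TPM in 2C+F10, 8.18 TPM in 2C+MTG, 37.9 TPM in 2C+VC, 4.57 TPM in the unnumbered ALL library and 25.8 TPM in 2C, and the mesothelial genes Wt1, Upk3b and Lrrn4 were at 0 in 2C+F10 and 2C. Ptprc, the pan-leukocyte gene, was at 0 in both libraries, as were 5 more of 9 immune genes, and the summed endothelial list was 13.54 TPM in 2C+F10 and 15.63 TPM in 2C, nearly all of it Egfl7.

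Cyp1a1, a cytochrome P450 that the aryl hydrocarbon receptor induces, stood at 59.2 TPM in 2C+F10 and 6.22 TPM in 2C and was listed at 0 in the other 3 libraries. The difference was 3.06, and in the numbered libraries the gene was near 0 throughout. The motif TNGCGTG, held by 4.10% of promoters on either strand, was not found in the 250 bases before its start site. The shorter core GCGTG occurs there, and sequence further away was not searched. Over the whole table, 2C+F10 stood at least 1 above the highest or below the lowest of the other 4 libraries for 119 of 11622 genes (1.02%), 95 of them higher (0.817%) and 24 lower (0.207%). The same count was 119 for 2C+MTG (1.02%), 139 for 2C+VC (1.2%), 188 for the unnumbered ALL library (1.62%) and 104 for 2C (0.895%), so the count of 2C+F10 lay within the range of the other 4. Among the genes apart, chosen after their values were seen, were Selenbp1, a selenium-binding protein, with 753 TPM in 2C+F10 and 259 TPM in 2C, and Ass1, the argininosuccinate synthase, with 36.9 TPM in 2C+F10 and 9.80 TPM in 2C.

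Several lists of pathways that act with FGF10 in the lung held no called gene. These were WNT response (12 genes), BMP and TGF-beta response (14 genes), Hedgehog (8 genes) and Notch (12 genes), with medians of -0.11, -0.09, 0.10 and -0.07. Of their genes, 8, 9, 3 and 7 reached the floor. Over all genes compared 5.91% were called, so no call in such short lists is no result about these pathways. YAP targets, glycolysis, cholesterol synthesis, interferon response, MHC and ATF4 lists had no call either, with 4 to 16 genes at the floor. The MHC list had the highest median of these, 0.38, with H2-K1 at 199 TPM in 2C+F10 and 110 TPM in 2C.

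The replicated comparison asked what the removal of FGF10 from the full medium did. ALL-FGF10 and ALL share no library with 2C+F10 and 2C. With limma over the 8 numbered libraries, 271 of 14802 genes passed an adjusted p of 0.05 (1.83%), 130 of them higher in ALL-FGF10 (0.878%) and 141 lower (0.953%). The labels do not say whether the 2 replicates came from separate cultures, so the p-values speak for the spread among these particular libraries alone. The count moved with single libraries. It was 11 without ALL-FGF10 replicate 1, 9 without ALL-FGF10 replicate 2, 1149 without ALL replicate 1 and 145 without ALL replicate 2. It was 125 and 123 without ALL-VC replicate 1 or 2. The Y-linked Eif2s3y had 79.9 and 83.4 TPM in ALL-FGF10 and 74.5 and 0.22 TPM in ALL replicates 1 and 2, and its part in the result was not tested. The median difference over all genes was 0.10, or 0.02 after rescaling libraries by median ratios. Of the 644 genes called between 2C+F10 and 2C, 447 were tested here and 41 were called in both, which is 9.17% of the 447 and 15.1% of the 271. A gene that FGF10 moves one way in both settings has opposite signs in the 2 differences. That held for 26 of the 41 genes, and 15 had the same sign, but the share of opposite signs over all genes tested was not counted. The 26 include the pseudogene Gm42845, with 3240 TPM in the unnumbered ALL library and 0 in ALL replicates 1 and 2. Most of the 41 are predicted genes, pseudogenes or short RNAs, and 8 protein-coding genes with an established name are described here.

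Of the 8, 6 were higher with FGF10 added and lower with FGF10 left out. All 8 were higher in 2C+F10, where the protein-coding calls were 228 higher and 85 lower. The count of 6 thus rests on the sign of ALL-FGF10 minus ALL alone, in genes picked for passing both thresholds. Pygl, the liver-type glycogen phosphorylase, had 168 TPM in 2C+F10, 117 TPM in 2C+MTG, 87.7 TPM in 2C+VC, 65.5 TPM in the unnumbered ALL library and 56.8 TPM in 2C. It had 18.5 and 20.5 TPM in ALL-FGF10 and 60.7 and 54.1 TPM in ALL, a log2 difference of -1.51 ± 0.22 (SE of the limma fit, adjusted p = 0.0212). The values of ALL-FGF10 and ALL did not overlap. How many of all genes tested separate this way, with 2 libraries each, was not counted. Lcn2 had 868 and 662 TPM in ALL-FGF10 and 3700 and 5707 TPM in ALL (limma, -2.60 ± 0.43, adjusted p = 0.0344). Other libraries did not order Lcn2 by FGF10, with 188 TPM in 2C+VC, beside 38.7 TPM in 2C+F10 and 9.41 TPM in 2C, and 223 and 585 TPM in ALL-MTG, under both ALL-FGF10 values.

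Dynlt1b, a dynein light chain gene from a cluster of near-identical copies whose reads may be split, had 387 TPM in 2C+F10 and 127 TPM in 2C. It had 111 and 98.4 TPM in ALL-FGF10 and 248 and 261 TPM in ALL, with limma giving -1.28 ± 0.13 (SE) and an adjusted p of 0.00478. The remaining genes of this kind were Dmkn, a secreted epidermal protein, Akr1b8, an aldo-keto reductase, and Rras, a small GTPase, with limma differences of -2.27, -1.49 and -1.33. Kcne2, a potassium channel subunit, and Pagr1a, a nuclear cofactor, were higher both with FGF10 added and with FGF10 left out. When 1 of the 2 ALL-FGF10 libraries was left out, none of these 8 genes passed the test, with limma adjusted p-values from 0.0925 to 0.454, while the sign of each was kept.

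**Figure D5:**
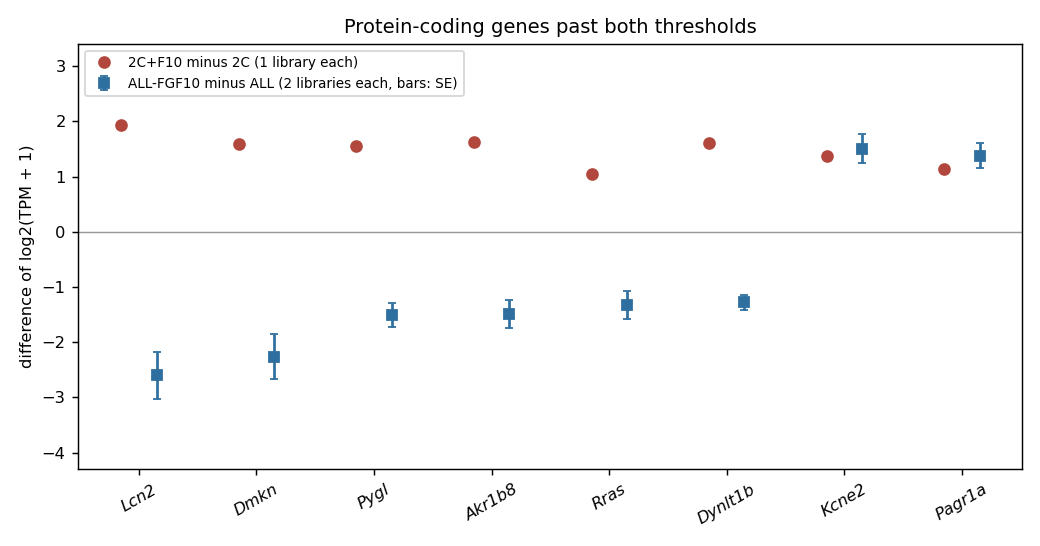
Points give the difference in log2(TPM + 1) for 8 protein-coding genes past both thresholds, red circles for 2C+F10 minus 2C (1 library each) and blue squares for ALL-FGF10 minus ALL (2 libraries each, bars for the standard error of the limma fit). For 6 genes, from Lcn2 to Dynlt1b, the red points lie above 0 and the blue points below 0, and Kcne2 and Pagr1a lie above 0 in both.

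When FGF10 was left out of the full medium, the lists described above gave 0 to 4 calls each, where 1.83% of all genes tested were called. Of the 12 transitional genes 2 were lower in ALL-FGF10, and the limma median of the list was -0.90, against at most 0.61 between replicates and 0.51 for 2C+F10 minus 2C. Cldn4, a tight junction gene, had 12.4 and 10.03 TPM in ALL-FGF10 and 44.3 and 75.8 TPM in ALL (limma, -2.28 ± 0.27, adjusted p = 0.00892), beside 163 TPM in 2C+F10 and 120 TPM in 2C. Krt19, a keratin of simple epithelium, had 40.9 and 45.6 TPM in ALL-FGF10 and 92.9 and 88.2 TPM in ALL (limma, -1.05 ± 0.16, adjusted p = 0.0307), beside 409.98 TPM in 2C+F10 and 289.57 TPM in 2C. Neither gene was called between 2C+F10 and 2C. Both are also the 2 genes called among 18 of lung epithelium, a list with a limma median of -0.36, against at most 0.16 between replicates and 0.32 for 2C+F10 minus 2C. None of the 20 FGF and ERK response genes passed the limma test, with a median of -0.15. Dusp6 came nearest, with 19.5 and 22.3 TPM in ALL-FGF10 and 45.6 and 40.5 TPM in ALL (-1.01 ± 0.23, limma adjusted p = 0.0883). Egr1 did not pass either, with 29.6 and 29.5 TPM in ALL-FGF10 and 165 and 277 TPM in ALL (-2.81 ± 0.74, limma adjusted p = 0.118). None of the 20 proliferation genes and none of the 20 AT1 genes was called. Among AT2 genes Hc, the complement component C5, was called, and it was higher without FGF10, with 474 and 539 TPM in ALL-FGF10 and 137 and 192 TPM in ALL. Sftpd had 961 and 900 TPM in ALL-FGF10 and 1319 and 1674 TPM in ALL and was not called, with a limma adjusted p of 0.423. Of the 15 chemokine and mucosal defence genes tested, 4 were called and all were lower in ALL-FGF10: Lcn2, the immunoglobulin receptor Pigr, complement factor B (Cfb) and Cd177. Pigr, Cfb and Cd177 were at 0.57 TPM or less in both 2C+F10 and 2C. Without 1 of the ALL-FGF10 libraries, Cldn4, Krt19, Hc, Lcn2, Pigr and Cfb did not pass, with limma adjusted p-values from 0.0925 to 0.394, and Cd177 passed without replicate 1 (0.0297) but not without replicate 2 (0.0824). Without ALL replicate 2, Krt19, Lcn2, Pigr and Cfb did not pass, with limma adjusted p-values from 0.0792 to 0.136, nor did Lcn2 and Cfb without either ALL-VC library (0.0688 to 0.0805) and Cfb without ALL replicate 1 (0.0531). Scgb1a1 had 1.62 and 39.4 TPM in ALL-FGF10 and 12.53 and 4.10 TPM in ALL, and Sox9 had 32.7 and 28.3 TPM in ALL-FGF10 and 23.4 and 22.4 TPM in ALL, with limma adjusted p-values of 0.907 and 0.268.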

How the data were processed

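The deposited unit is TPM for each gene; the submitters' processing notes name RSEM, Bowtie2 and mm10 without versions. Per the labels' protocols, RNA was taken with TRIzol and libraries were made with a VAHTS mRNA kit and sequenced on a NovaSeq X Plus. TPM keeps no depth, so depth per library and its counting error are unknown. Reads and counts were not used here. Of 5 deposited tables, 2 were used, with 5 and 8 libraries, each column matched by title.

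Values were taken as log2(TPM + 1), which understates the change of low genes. The 2C libraries were compared by differences with a floor of 5 TPM and a threshold of 1, without a test. ALL-FGF10 and ALL were compared with limma 3.58.1 in R 4.3.3 (trended eBayes, two-sided, Benjamini-Hochberg), 8 libraries in 1 fit, on genes at 1 TPM or more in at least 2 of them. On simulated data with 14137 genes this fit called 35% of genes changed by 1 and 87% of genes changed by 2 on the log2 scale. It also called 5 unchanged genes. The changed genes were drawn from those with a mean log2 value above that of 5 TPM, with independent noise. These rates thus do not cover lower genes or shifts of a whole library. No 2 libraries were identical. Coordinates and biotypes are from GENCODE M21 on GRCm38, which matched all 55260 symbols. Tables and figures were made with Python 3.11.15, numpy 2.4.6, pandas 2.3.3 and matplotlib 3.10.9.

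Genes were named by rule: the 15 largest positive and 15 largest negative differences (leaving out predicted, clone and mitochondrial genes and transcripts under 300 nt), up to 5 called members of each of 35 gene lists, every FGF ligand, receptor and response gene, 5 label checks and the genes called in both comparisons, 149 in all. Other list members are named as examples, and 1 gene called in both comparisons is not reported here. The members and lists were chosen with earlier results of these data known. Alternatives changed the pseudocount, the floor or filter, the scaling, the libraries in the fit and a replicate block.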

Additional observations from a re-analysis of the deposited data

Results flagged for a closer look

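A few genes had the same sign of difference when FGF10 was added to 2C and when it was left out of ALL, where an effect of FGF10 shared by both settings would give opposite signs. Pagr1a differed by 1.13 for 2C+F10 minus 2C and by 1.38 for ALL-FGF10 minus ALL. Kcne2 differed by 1.37 for 2C+F10 minus 2C and by 1.50 for ALL-FGF10 minus ALL. The ribosomal pseudogene Rpl17-ps8 differed by 1.55 and 2.76 in the same 2 comparisons. The signal recognition particle RNAs Rn7s1 and Rn7s2, identical copies with identical values, differed by -1.97 and -2.96. Whether these differences depart between the 2 settings was not tested.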

How the results depend on the processing

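No called gene among those named by rule changed sign under the alternatives run for it. Among uncalled values, Phlda1 had -0.05 and the median of the glycolysis list was -0.05 with quantile normalization, against positive values near 0 as reported. Against 644 genes called between 2C+F10 and 2C (336 higher, 308 lower), a pseudocount of 5 TPM gave 380 (177 higher, 203 lower), a floor of 1 TPM gave 1485 (749 higher, 736 lower) and a floor of 20 TPM gave 226 (137 higher, 89 lower). The 119 genes that set 2C+F10 apart became 76, 288 and 50 under the same 3 settings. Between replicates, the pseudocount of 5 TPM gave 613 genes for ALL, 480 for ALL-MTG and 207 for ALL-VC, the floor of 1 TPM gave 2701, 1829, 1346 and, for ALL-FGF10, 840, and the floor of 20 TPM gave 452, 361, 113 and 86. Without mitochondrial and short genes the ALL-FGF10 pair gave 145. Rescaling by median ratios or quantiles kept the first count at 606 and 610. The floor sets how many low genes are compared, 14980 at 1 TPM and 6505 at 20 TPM against 10896; the cause of the other changes was not tested.

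The 271 genes called by limma between ALL-FGF10 and ALL became 177 with a pseudocount of 0.1 TPM, 149 without mitochondrial and short genes and 166 with the 2 groups alone. Leaving out 1 library at a time gave 9 to 1149 genes, with 11 and 9 without ALL-FGF10 replicate 1 or 2 and 1149 without ALL replicate 1, the library with fibroblast matrix genes; the cause was not tested. Replicate numbers did not pair the samples (correlations of replicate differences from -0.07 to 0.11), and a replicate block gave 143. Without a filter on TPM, 69.3% of 293 calls were higher in ALL-FGF10, against 48.0% of 271. Of the 41 genes called in both comparisons, all kept their sign with each library left out in turn, where they could be tested. Without 1 ALL-FGF10 library, 18 of the 41 could not be tested, and 2 predicted genes, Gm4322 and Gm7887, were still called with each of these libraries left out in turn. With 1 library for 2C+F10 and 1 for 2C, leaving out a replicate was not possible there.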

Other observations

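Genes linked to the aryl hydrocarbon receptor, listed after Cyp1a1 was seen, were mixed. Cyp1b1 had 95.7 TPM in 2C+F10 and 49.99 TPM in 2C, and Nqo1 had 13.9 TPM in 2C+F10 and 5.41 TPM in 2C. Tiparp had 68.1 TPM in 2C+F10 and 55.7 TPM in 2C, Ahrr had 2.03 TPM in 2C+F10 and 0.89 TPM in 2C, and the receptor gene Ahr had 34.6 TPM in 2C+F10 and 40.4 TPM in 2C. Nqo1 was the only one of these 5 past the threshold, with a difference of 1.22 inside the 1.96 seen between replicates.

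Many called genes were listed at 0 in 1 library. That held for 115 of the 308 lower genes, at 0 in 2C+F10, 3 of them protein-coding, and for 49 of the 336 higher genes, at 0 in 2C, none of them protein-coding. The pseudogene Gm42845, of 105 nt, had 0 TPM in 2C+F10 and 3962 TPM in 2C, with 3852 TPM in 2C+MTG, 3972 TPM in 2C+VC and 3240 TPM in the unnumbered ALL library. In the other table it had 3764 and 2730 TPM in ALL-FGF10 and 0 in all 6 other libraries, so the unnumbered and the numbered ALL libraries differ for it.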
